A study of Mus musculus with 4 samples.

Results

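The genes described here encode 9 cell-surface receptors, of which 7 receive the cytokines that steer blood formation (Kit, Flt3, Csf1r, Csf2rb, Csf3r, Epor and Il7r) and 2 receive platelet-derived growth factor (PDGF; Pdgfra and Pdgfrb). They were chosen by name from 21938 protein-coding genes, by no measured value though with earlier results of these data known, and their chromatin was read in mouse erythro-myeloid progenitors (EMPs). Member peaks were the peaks that the authors' annotation tables paired with one of these genes, together with every peak inside the gene or within 10 kb of it. This gave 7 of the 10223 peaks called with 500 EMPs and 6 of the 15282 peaks called with 15000 EMPs.

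H3K27me3, the trimethylation of lysine 27 on histone H3 that Polycomb complexes place through the enzyme Ezh2, was profiled by CUT&RUN. In this assay an antibody bound to the mark recruits a nuclease, and the DNA fragments that the nuclease cuts free are sequenced. EMPs came from the yolk sac at E10.5 of C57BL/6 mice, and the genotype label reads Ezh2fl/fl and Tie2-Cre+/+ followed by the words wild type, so the cells were taken as wild type. An H3K27me3 library and a library made with IgG, a non-specific antibody, were prepared from 500 EMPs and again from 15000 EMPs, and the labels give no treatment. Tie2-Cre, where it is present, acts in endothelium and in the blood cells that descend from it, and whether a Cre transgene was carried cannot be read from that label. The number of embryos behind each library is not given in the sources used here.

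Every group held 1 library, so no difference between the cell numbers could be tested. The 500 EMP and 15000 EMP libraries also differed in PCR cycles (17 and 16), read length (76 bp and 59 bp), sequencer and peak threshold (p-value of 0.01 and 0.05), and cell number cannot be told apart from these. The lists give the position of each peak and no height, score or read count, so a peak is present or absent and the reads behind it cannot be counted from them. The study's reporting summary gives fewer reads and a much lower alignment rate for the smaller cell number, and this gap in aligned reads bears on every comparison of the libraries and was not corrected for. Peaks had a median width of 363 bp with 500 EMPs and 770 bp with 15000 EMPs and covered 5.95 Mb and 24.0 Mb of the genome.

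Receptors of the Kit family, which holds Kit, Flt3, Csf1r, Pdgfra and Pdgfrb, carry their own tyrosine kinase and are switched on when a ligand brings receptor chains together. Csf2rb, Csf3r, Epor and Il7r belong to the class I cytokine receptors, which have no kinase of their own and signal through bound Janus kinases. Pdgfra and Kit lie next to each other in the genome, as do Pdgfrb and Csf1r, an arrangement usually put down to duplication of an ancestral gene pair. EMPs are blood progenitors of the yolk sac that give rise to red cells, megakaryocytes and myeloid cells, whereas PDGF receptors are best known from mesenchyme, where they drive growth and migration. Polycomb marking is typically found over CpG-rich starts of developmental genes that a cell keeps silent, and it is usually absent from starts in active use.

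The DNA at 3 of these genes is shown because they span the range of outcomes: Pdgfra was broadly covered by H3K27me3, Flt3 covered at its start mainly with 15000 EMPs, and Kit not covered in either library. The sequences are from RefSeq build GRCm38.p6, 5′ to 3′ on the strand of the gene, and capitals mark the dinucleotide CG (CpG), which reads the same on both strands. The first set holds the bases just before the RefSeq start, cut where the GENCODE gene begins so that no transcribed base is shown. The Pdgfra stretch lies at chr5:75152001-75152250, the Flt3 stretch at chr5:147400490-147400739 on the minus strand and the Kit stretch at chr5:75574737-75574915.
Pdgfra upstream: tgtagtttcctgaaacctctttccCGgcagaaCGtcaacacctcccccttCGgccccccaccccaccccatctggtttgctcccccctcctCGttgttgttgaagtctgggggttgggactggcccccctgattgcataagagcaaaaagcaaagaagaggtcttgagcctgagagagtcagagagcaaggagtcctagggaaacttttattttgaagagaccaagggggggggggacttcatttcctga
Flt3 upstream: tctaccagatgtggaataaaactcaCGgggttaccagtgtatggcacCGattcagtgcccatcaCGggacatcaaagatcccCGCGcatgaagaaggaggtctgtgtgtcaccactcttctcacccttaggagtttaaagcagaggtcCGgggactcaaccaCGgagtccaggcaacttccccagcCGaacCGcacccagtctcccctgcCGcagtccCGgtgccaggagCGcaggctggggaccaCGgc
Kit upstream: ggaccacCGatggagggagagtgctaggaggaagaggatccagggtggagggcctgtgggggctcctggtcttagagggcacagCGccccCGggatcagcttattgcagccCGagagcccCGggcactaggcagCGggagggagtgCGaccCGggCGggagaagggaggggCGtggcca
The printed stretch holds 4 CpG in 250 bases for Pdgfra, 13 in 250 bases for Flt3 and 10 in 179 bases for Kit, whose full 250 bases hold 17. Of the 32851 RefSeq promoters of the same length, 92.1% hold at least 1 CpG, 62.2% at least as many as Pdgfra, 31.5% at least as many as Flt3 and 23.5% at least as many as Kit. The 500 EMP peaks covered 0 bases of all 3 stretches. The 15000 EMP peaks covered all 250 bases of the Pdgfra and Flt3 stretches and 0 bases of the Kit stretch.

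The second set shows, for the same 3 genes, the 300 bases richest in CpG within 3 kb of the start that touch no annotated exon. The Pdgfra stretch, chr5:75151223-75151522, lies 1069 to 770 bp before the start, the Flt3 stretch, chr5:147399900-147400199 on the minus strand, lies 290 to 589 bp after it in intron 1, and the Kit stretch, chr5:75575366-75575665, lies 450 to 749 bp after it.
Pdgfra CpG-rich: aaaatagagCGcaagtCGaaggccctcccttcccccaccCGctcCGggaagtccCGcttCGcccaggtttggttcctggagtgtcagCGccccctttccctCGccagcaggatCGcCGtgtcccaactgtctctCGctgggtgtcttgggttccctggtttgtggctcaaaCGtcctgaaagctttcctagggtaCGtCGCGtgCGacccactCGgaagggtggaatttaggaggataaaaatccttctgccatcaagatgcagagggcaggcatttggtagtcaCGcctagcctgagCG
Flt3 CpG-rich: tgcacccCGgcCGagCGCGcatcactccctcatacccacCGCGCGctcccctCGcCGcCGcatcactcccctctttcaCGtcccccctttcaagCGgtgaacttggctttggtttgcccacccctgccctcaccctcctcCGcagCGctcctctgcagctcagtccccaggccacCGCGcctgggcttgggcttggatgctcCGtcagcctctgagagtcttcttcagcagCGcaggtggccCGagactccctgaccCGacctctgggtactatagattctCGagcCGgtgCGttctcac
Kit CpG-rich: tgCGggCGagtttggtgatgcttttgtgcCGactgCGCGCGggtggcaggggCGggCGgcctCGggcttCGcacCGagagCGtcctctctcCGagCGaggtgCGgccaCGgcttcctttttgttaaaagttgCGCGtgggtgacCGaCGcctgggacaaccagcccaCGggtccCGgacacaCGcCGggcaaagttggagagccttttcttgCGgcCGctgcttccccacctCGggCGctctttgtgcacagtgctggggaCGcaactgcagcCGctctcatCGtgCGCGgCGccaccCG
These stretches hold 35 CpG in 300 bases for Kit, which no peak reached, 23 for Flt3 and 19 for Pdgfra. The order is not the same in the richest 500 bp within 3 kb of the start with exons kept, where Pdgfra holds 57 CpG, Kit 53 and Flt3 51, a measure that differs in both length and exons. The 500 EMP peaks covered 111 bases of the Pdgfra stretch and 0 of the others. The 15000 EMP peaks covered all 300 bases for Pdgfra and for Flt3, and 0 for Kit.

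Of the 9 receptor genes, 2 had an H3K27me3 peak in the start window with 500 EMPs, namely Flt3 and Pdgfra, where the start window runs from 3 kb before to 3 kb after the gene start (6001 bp). The share, 22.2% (95% Wilson interval 6.32 to 54.7, counting error only), stood beside 9.92% of all protein-coding genes. With 15000 EMPs 3 of 9 had one, as Epor joined Flt3 and Pdgfra, and this 33.3% (12.1 to 64.6) stood beside 17% of all genes. Both intervals hold the share of all genes. The Epor call was lost with a window of 1 kb either side and where at least 10% of the window had to be covered. This left 2 members with 15000 EMPs (beside 15.2% and 14.98% of all genes). With 500 EMPs the Flt3 call was lost under the same rules, which left 1 member (beside 7.39% and 5.75% of all genes). The members called with the 3 kb window also had a peak inside the gene body, where 10.4% of all genes had one with 500 EMPs and 18.4% with 15000 EMPs. More than 50% of the start window was covered in 0 members with 500 EMPs, beside 0.862% of all genes, and in 2 members (Flt3 and Pdgfra) with 15000 EMPs, beside 7.83% of all genes. Counting 10 kb of flank added Pdgfrb, for 3 of 9 members with 500 EMPs and 4 of 9 with 15000 EMPs, beside 15.1% and 25% of all genes. Kit, Csf1r, Csf2rb, Csf3r and Il7r had 0 peaks in the gene or within 10 kb in both libraries.

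**Figure D1:**
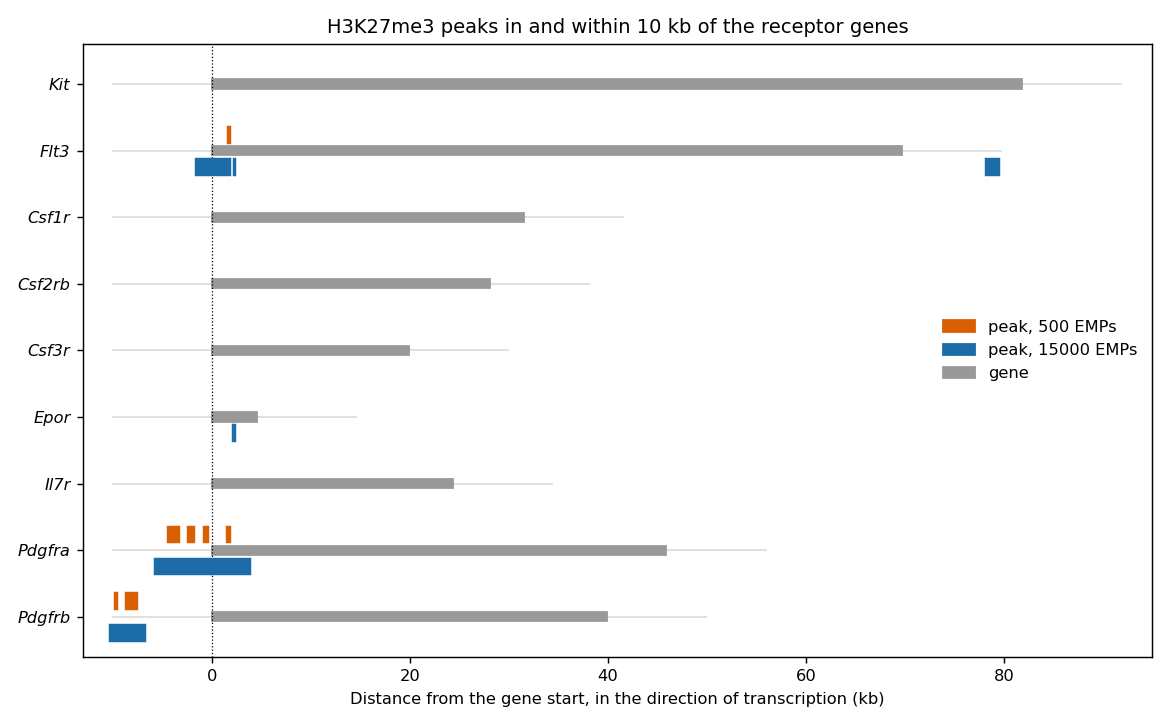
H3K27me3 peaks at the 9 receptor genes, with distance from the gene start in kb on the horizontal axis, the gene as a grey bar, 10 kb of flank as a thin line and peaks as blocks above (500 EMPs) and below (15000 EMPs). Pdgfra carried 4 short peaks with 500 EMPs and 1 peak of 9712 bp with 15000 EMPs, while Kit, Csf1r, Csf2rb, Csf3r and Il7r carried none.

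Pdgfra, the PDGF receptor alpha chain that binds the PDGF A, B and C chains, had the greatest length covered by H3K27me3 peaks among the members. Its gene (ENSMUSG00000029231) spans chr5:75152292-75198215 on the plus strand. With 500 EMPs it carried 4 peaks. The outermost was 1136 bp wide, 4483 to 3348 bp before the start at chr5:75147809-75148944. The next was 635 bp wide, 2460 to 1826 bp before the start at chr5:75149832-75150466. The one nearest the start was 499 bp wide, 880 to 382 bp before it at chr5:75151412-75151910. The last was 398 bp wide in intron 1, 1459 to 1856 bp after the start at chr5:75153751-75154148. None of these 4 lay on the start itself, and together they covered 2668 bp.

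With 15000 EMPs Pdgfra carried a single peak of 9712 bp, chr5:75146429-75156140, which ran from 5863 bp before the start to 3848 bp after it. It covered all 152 bp of exon 1 and 3683 of the 9773 bp of intron 1. All 4 of the 500 EMP peaks lay within it and filled 27.5% of its length. It ranked 192 by width in its list, and 1.26% of the 15000 EMP peaks were at least as wide. In the start window the peaks covered 1532 bp (25.5%) with 500 EMPs and the whole 6001 bp (100%) with 15000 EMPs. As much cover was reached by 621 genes (2.83% of all) with 500 EMPs and by 139 genes (0.634%) with 15000 EMPs. Among genes with any peak in the window the median cover was 789 bp and 2743 bp, so Pdgfra lay above that median in both libraries.

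Pdgfrb, the PDGF receptor beta chain of pericytes and smooth muscle, differed from Pdgfra in having no peak in its gene (ENSMUSG00000024620, chr18:61045150-61085061, plus strand) or start window. The flanking peaks lay on its upstream side, close to Cdx1, a homeobox gene of the posterior body axis. With 500 EMPs they were 315 bp wide at chr18:61035303-61035617, ending 9533 bp before the Pdgfrb start, and 1279 bp wide at chr18:61036374-61037652, ending 7498 bp before it. With 15000 EMPs 1 peak of 3649 bp at chr18:61034740-61038388 ended 6762 bp before it and contained both. The authors' tables pair all 3 of these peaks with Cdx1, whose start window they covered by 1594 bp (26.6%) and 3649 bp (60.8%), and none with Pdgfrb. The genes Cdx1 and Pdgfrb point away from each other, with 8.95 kb between them.

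Flt3, the receptor for Flt3 ligand that marks early lymphoid and myeloid progenitors, was the blood cytokine receptor with the most cover. Its gene (ENSMUSG00000042817) spans chr5:147330741-147400489 on the minus strand. With 500 EMPs it had 1 peak of 349 bp, chr5:147398641-147398989, in intron 1 and 1500 to 1848 bp past the start. This covered 5.82% of the start window, a cover that 1625 genes (7.41%) reached or exceeded. With 15000 EMPs a peak of 3492 bp, chr5:147398650-147402141, crossed the start from 1652 bp before it to 1839 bp after it. It took in the whole 270 bp of exon 1, 46 coding bases included, and 1570 of the 16713 bp of intron 1. A second peak of 261 bp followed in intron 1, at chr5:147398125-147398385. Both together covered 3753 bp of the window (62.5%), a cover that 1265 genes (5.77%) reached or exceeded. Of the 349 bp of the 500 EMP peak, 340 bp lay inside the 15000 EMP peak that crosses the start, and the 261 bp peak had no counterpart.

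The third 15000 EMP peak near Flt3, 1421 bp at chr5:147321029-147322449, lay 8292 bp beyond the end of the gene. It covered the start of Urad, an enzyme gene of uric acid breakdown, and the authors' table pairs it with Urad alone. Beyond Urad stand Cdx2 and Pdx1, homeobox genes of gut and pancreas that were chosen for mention after their values were seen. Peaks covered 4131 bp (68.8%) of the Cdx2 start window with 500 EMPs and 6001 bp (100%) with 15000 EMPs, and 4231 bp (70.5%) and 5661 bp (94.3%) of the Pdx1 window. The Flt3 gene body between these domains and the Flt3 start was otherwise free of peaks: 349 bp of its 69749 bp were covered with 500 EMPs and 2101 bp with 15000 EMPs. Pan3, the next gene on the upstream side, had 0 bp covered in its start window in both libraries.

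Epor, the erythropoietin receptor that red cell precursors need, had no peak with 500 EMPs, where the nearest lay 16506 bp from the gene (ENSMUSG00000006235, chr9:21958897-21963506, minus strand). With 15000 EMPs 1 peak of 246 bp, chr9:21961166-21961411, lay 2095 to 2340 bp past the start within intron 4, which is 604 bp long. Its sequence is shown because it is the whole of the Epor signal, with capitals again marking CpG and the letters on the strand of the gene.
Epor intron 4 peak: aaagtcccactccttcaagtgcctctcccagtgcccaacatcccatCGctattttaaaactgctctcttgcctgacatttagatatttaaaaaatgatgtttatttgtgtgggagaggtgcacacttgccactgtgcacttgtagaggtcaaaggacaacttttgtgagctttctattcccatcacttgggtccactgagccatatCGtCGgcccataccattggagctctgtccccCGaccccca
It holds 4 CpG and has a GC content of 47.6%. It was among the narrow peaks, since 88.0% of the 15000 EMP peaks were at least as wide, and no 500 EMP peak overlapped it. It covered 4.10% of the start window, a cover reached by 3602 genes (16.4%). Rgl3, whose gene begins 25940 bp upstream of the Epor start, had 1571 bp (26.2%) and 5653 bp (94.2%) of its own start window covered.

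Kit, the receptor for stem cell factor, had no peak in its gene (ENSMUSG00000005672, chr5:75574916-75656722, plus strand), in its start window or within 10 kb in either library. KIT protein was among the surface markers by which the study sorted these cells, so the cells were chosen for expression of this gene. The peak nearest to the gene lay 420768 bp away with 500 EMPs and 320830 bp away with 15000 EMPs. The stretch without peaks around the Kit start was 5868 kb long with 500 EMPs and 821 kb long with 15000 EMPs. Peak-free stretches of this length are common in sparse lists, as 10.1% and 38.0% of all genes start in one at least as long, and the median over all genes was 1080 kb and 533 kb.

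Csf1r, the receptor for macrophage colony-stimulating factor, also had 0 bp covered in its gene (ENSMUSG00000024621, chr18:61100598-61132149, plus strand). The nearest peak lay 62946 bp away with 500 EMPs and 62210 bp away with 15000 EMPs, in both cases the peak at Cdx1. Its start shared a peak-free stretch of 1137 kb and 363 kb with the Pdgfrb start, and 48.8% and 60.1% of all genes start in one as long.

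Csf2rb encodes the beta chain shared by the receptors for GM-CSF, interleukin-3 and interleukin-5, and its gene (ENSMUSG00000071713, chr15:78325752-78353847, plus strand) had 0 bp covered. The nearest peak lay 56317 bp and 55618 bp away, and the surrounding peak-free stretch of 204 kb and 203 kb was short for the genome, with 86.5% and 71.7% of genes in one as long. Csf2rb2, its near-identical copy 20030 bp away, likewise had 0 bp covered. How reads that fit both copies were placed was not tested, so the values of this pair are uncertain.

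Csf3r, the receptor for granulocyte colony-stimulating factor, had 0 bp covered in its gene (ENSMUSG00000028859, chr4:126024550-126044440, plus strand), with the nearest peak 242073 bp and 111885 bp away. Mrps15, which starts 2484 bp beyond the end of Csf3r, had 0 bp covered in its start window, and Grik3, a glutamate receptor gene 310376 bp upstream, had 3307 bp (55.1%) and 5314 bp (88.6%). Il7r, the interleukin-7 receptor of lymphoid precursors, was the member farthest from any peak, 1411 kb with 500 EMPs and 647 kb with 15000 EMPs from its gene (ENSMUSG00000003882, chr15:9505788-9530176, minus strand). The study lists an antibody against the IL-7R protein in the same dye as its lineage markers, so cells that express this gene may have been sorted out. Its neighbours Capsl and Spef2 had 0 bp covered in their start windows in both libraries. The lists therefore gave the lymphoid receptor Il7r and the myeloid receptors Csf1r, Csf2rb and Csf3r the same value, 0 bp.

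**Figure D2:**
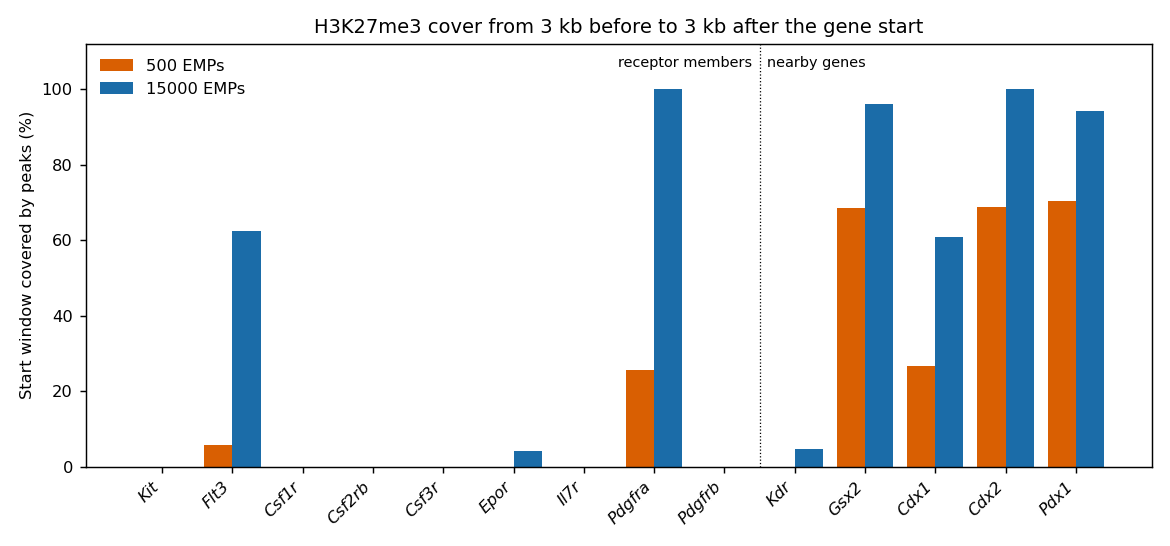
Share of the start window (3 kb either side of the gene start) covered by H3K27me3 peaks, in percent, for the 9 receptor genes and 5 nearby genes, with 1 bar per library. Among the receptors Pdgfra reached 25.5% and 100%, Flt3 5.82% and 62.5% and Epor 0% and 4.10%, and the other 6 stayed at 0% in both libraries.

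The neighbours Pdgfra and Kit lie on the same strand with 376.7 kb between them and opposite values. Pdgfra had 1532 bp and 6001 bp of its start window covered with 500 and 15000 EMPs, and Kit 0 bp in both. The marked stretch ended 3848 bp past the Pdgfra start with 15000 EMPs, and neither list held a base between the end of Pdgfra and the start of Kit. The 276.104 kb between Kit and Kdr, the VEGF receptor gene on its other side, were equally without peaks, and no base of either interval or of Kit is unknown in the genome build. Kdr had 0 bp and 274 bp (4.57%) of its start window covered. On the far side of Pdgfra lies Gsx2, a homeobox gene of the forebrain, with 4106 bp (68.4%) and 5762 bp (96.0%) covered. In the 74.398 kb between Gsx2 and Pdgfra the peaks covered 9306 bp (12.5%) and 15554 bp (20.9%). Both Gsx2 and Pdgfra thus had peaks in the start window in each library, while Kit had none in either.

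Pdgfrb and Csf1r, 15.536 kb apart on the same strand, did not show such a contrast, as both had 0 bp covered in the gene and the start window and the interval between them held no peak. The nearest peaks stood at Cdx1 on the far side of Pdgfrb, with more beyond it near Slc6a7, so that the PDGF receptor of each pair was the one nearer to a covered homeobox gene, 74.398 kb from Gsx2 and 8.95 kb from Cdx1. Among these 4 receptors a peak lay across the start at Pdgfra alone, and with 15000 EMPs alone.

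How often a covered gene stands before an uncovered one was counted over the genome. Among 11490 adjacent gene pairs on the same strand, 993 had a peak in the start window of the upstream gene with 500 EMPs, and in 731 of these (73.6%) the downstream gene had none. With 15000 EMPs the numbers were 1755 and 1179 (67.2%). Over all these pairs, whatever the upstream gene, the downstream gene had none in 89.6% and 82.6%. The contrast between Pdgfra and Kit is therefore a description of this locus and was not set apart from other neighbours.

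**Figure D3:**
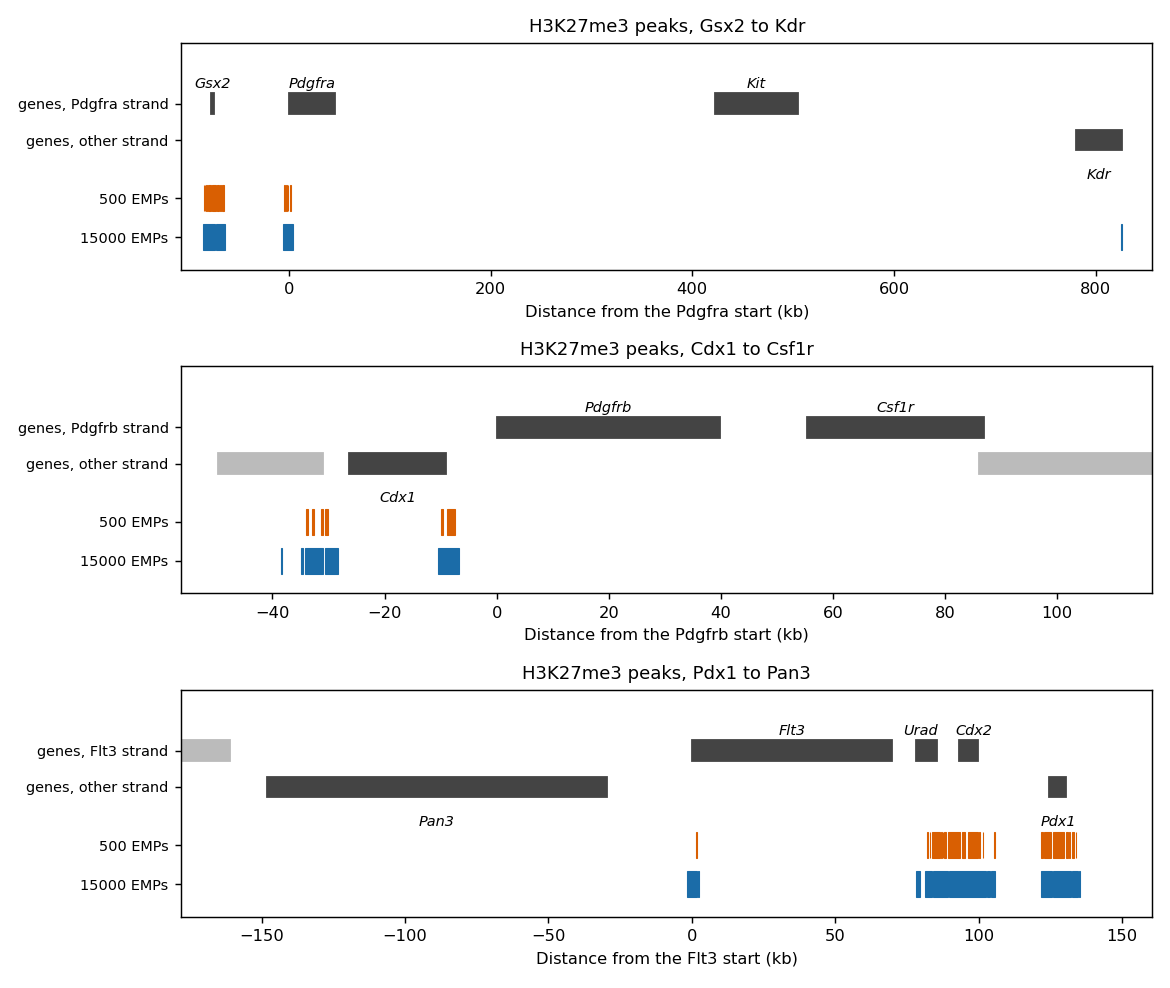
Genes and H3K27me3 peaks around Pdgfra and Kit (top), Pdgfrb and Csf1r (middle) and Flt3 (bottom), with distance from the start of Pdgfra, Pdgfrb or Flt3 in kb; genes on each strand are in separate rows, pale bars are further genes, and thin blocks are drawn slightly wider than their true width. No peak was drawn between Pdgfra and Kdr or from Pdgfrb through Csf1r, and the peaks near the Flt3 start stood apart from the dense peaks over Cdx2 and Pdx1.

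The 2 libraries were compared at the members by overlap of at least 1 bp. All 7 of the 500 EMP member peaks overlapped a 15000 EMP peak, 6 of them along their whole length and the Flt3 peak along 97.4%. Of the 6 member peaks with 15000 EMPs, 3 overlapped a 500 EMP peak, 1 each at Pdgfra, Pdgfrb and Flt3, with 27.5%, 43.7% and 9.74% of their length covered. The Epor peak and the other 2 Flt3 peaks had no 500 EMP counterpart. Over all genes, 2155 (9.82%) had a start window called in both libraries, and Flt3 and Pdgfra were the members among them. These 2155 came from 2177 genes called with 500 EMPs and 3728 called with 15000 EMPs. Such overlap in each direction is therefore not particular to the members. The share of all peaks that overlap the other list was not computed.

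The authors' tables held 5 rows for the members with 500 EMPs, 4 for Pdgfra and 1 for Flt3, and 4 rows with 15000 EMPs, 1 for Pdgfra, 2 for Flt3 and 1 for Epor. Their distances from the gene start were 3347, 1824, 380 and 1459 bp for Pdgfra and 1499 bp for Flt3 with 500 EMPs. With 15000 EMPs they were 0 bp for Pdgfra, 0 and 2103 bp for Flt3 and 2094 bp for Epor, all within 2 bp of the distances to the GENCODE starts. A limit of 3 kb on those distances leaves the same 2 and 3 members as the start window.

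CpG content at the gene start, which did not enter the choice of genes, was measured as the observed over expected CpG ratio from 500 bp before to 500 bp after the start. All genes were ranked by this ratio and split into 10 groups of equal size, with group 1 the lowest. Kit (0.675) and Flt3 (0.719) lay in the same group, group 7, in which 14.8% of genes had a peak in the start window with 500 EMPs and 24.4% with 15000 EMPs. Flt3 had a peak and Kit none. Pdgfra (0.398), Pdgfrb (0.394) and Epor (0.282) lay in group 4, with 6.79% and 13.4% of genes called, and of these Pdgfra was called in both libraries, Epor in the 15000 EMP library and Pdgfrb in neither. Csf3r (0.244) and Csf1r (0.189) lay in group 3, with 3.51% and 7.70% called, and Il7r (0.141) and Csf2rb (0.119) in group 2, with 1.82% and 4.38% called, and none of these 4 members was called.

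The 500 bp richest in CpG within 3 kb of the start lay past the start in some members. At Pdgfra they began 647 bp past it and held 57 CpG at a ratio of 1.12, all 500 bp covered with 15000 EMPs and 0 bp with 500 EMPs. The corresponding 500 bp at Kit began 484 bp past the start, held 53 CpG at a ratio of 0.963 and was covered in neither library. At Flt3 it lay from 102 bp before to 397 bp after the start, held 51 CpG and was covered in full with 15000 EMPs only. At Epor it began 1548 bp past the start, held 34 CpG and ended before the 246 bp peak began, so 0 bp were covered. The other 5 members had at most 19 CpG in their richest 500 bp.

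**Figure D4:**
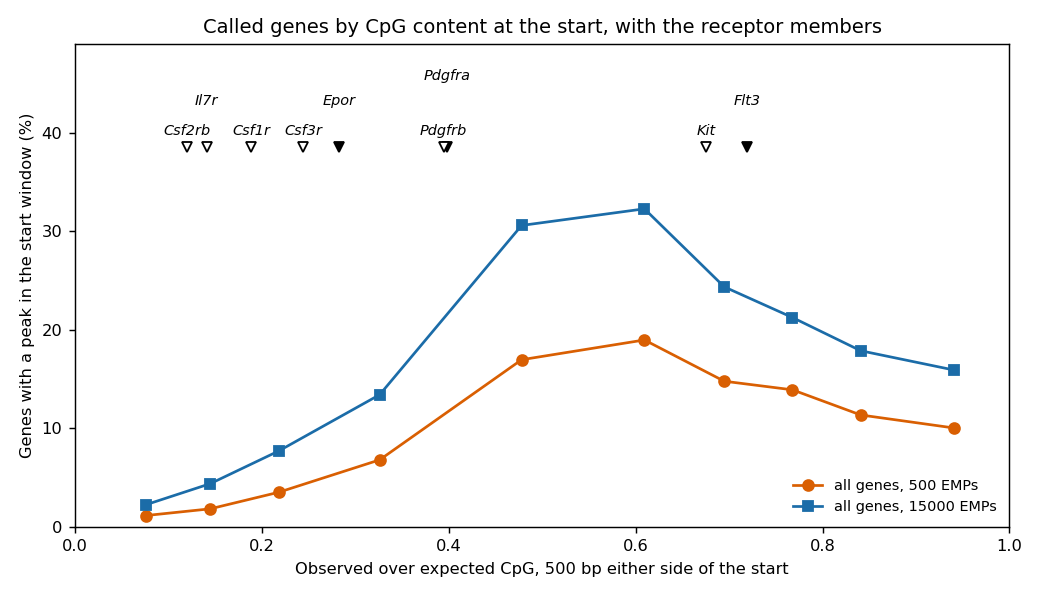
Percentage of all protein-coding genes with a peak in the start window against the observed over expected CpG ratio around the start, as 1 point per library for each of the 10 groups of genes ranked by that ratio, with triangles marking the ratio of each receptor gene (filled where a peak was called with 15000 EMPs). The share of called genes with 15000 EMPs was highest in group 6, at 32.3%, and Kit and Flt3 stood side by side with opposite outcomes.

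Of the 15 ligands of these receptors, 1 had a peak in the start window with 500 EMPs (6.67%, 1.19 to 29.8) and 4 with 15000 EMPs (26.7%, 10.9 to 52.0), and both intervals hold the share of all genes, 9.92% and 17%. The first was Pdgfa, a ligand of Pdgfra, with 2729 bp and 5133 bp covered. Kitl, the ligand of Kit, had 0 bp and 3706 bp covered. Pdgfc had 0 bp and 892 bp, and Csf1, the ligand of Csf1r, 0 bp and 240 bp. The other 11, among them Flt3l, Csf2, Csf3, Epo, Il7 and Pdgfb, had 0 bp of the start window covered in both libraries. Epo had 283 bp and 2105 bp covered in the gene or within 10 kb. With the start of any annotated transcript counted, 13.3% and 33.3% of the ligands were called, beside 11.0% and 18.5% of all genes.

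Among 33 other class I and class II cytokine receptors, 4 were called with 500 EMPs (12.1%, 4.82 to 27.3) and 7 with 15000 EMPs (21.2%, 10.7 to 37.8), and both intervals hold the share of all genes. Cntfr, the ciliary neurotrophic factor receptor, had 2868 bp and 4916 bp, Osmr 770 bp and 4245 bp, Il11ra1 1258 bp and 3982 bp, and Il27ra 1160 bp and 1999 bp. Cntfr (chr4:41657498-41697089) and Il11ra1 (chr4:41699989-41769474) lie close together, so their calls may rest on the same peaks. Whether Il11ra1 is marked apart from Cntfr was not tested. Of the 27 genes that act below the receptors, such as Jak2, Stat5a and Grb2, 0 were called with 500 EMPs (interval 0 to 12.5) and 2 with 15000 EMPs (7.41%, 2.06 to 23.4), and both intervals hold the share of all genes, 9.92% and 17%. These were the feedback inhibitors Socs2, with 1924 bp, and Socs3, with 1555 bp. With a window of 1 kb either side both calls were lost (0%, beside 15.2% of all genes).

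The receptor tyrosine kinases outside the members held a larger share of marked genes. Of 46 such genes 19 (41.3%, 28.3 to 55.7) were called with 500 EMPs and 30 (65.2%, 50.8 to 77.3) with 15000 EMPs, against 9.92% and 17% of all genes, and the median cover with 15000 EMPs was 1928 bp where that over all genes was 0 bp. Ret, the receptor of enteric neurons and kidney, had 4027 bp and 5177 bp, Erbb2 2503 bp and 5272 bp, and Insrr 1495 bp and 5764 bp. Of the 3 VEGF receptors Flt1 had 1734 bp and 5427 bp, Flt4 843 bp and 3558 bp, and Kdr 0 bp and 274 bp. The members with a kinase of their own fell on both sides, with Pdgfra and Flt3 covered and Kit, Csf1r and Pdgfrb at 0 bp.

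Markers of other cell types of the yolk sac and of blood were read in the same way, and since H3K27me3 accompanies silent genes, no cell type was named from them. The study sorted lineage-negative cells, and its antibodies include those against CD3e and B220, markers of lymphoid cells. Of 10 EMP genes, among them Itga2b and Fcgr3, which encode surface markers used in the sort, 0 had a peak in the start window in either library (interval 0 to 27.8, which holds the share of all genes, 9.92% and 17%). With a window of 5 kb either side 10% of them were called in each library, beside 10.6% and 17.9% of all genes, and Fcgr3 had 1060 bp and 2869 bp covered in the gene or within 10 kb. Of 15 mesenchyme genes 8 had one in each library, including Hand1 with 6001 bp and 5721 bp and Tbx18 with 2181 bp and 6001 bp. Of 10 yolk sac endoderm genes 4 had one in each library (Foxa2, Gata4, Gata6 and Sox7). Of 9 endothelial genes 2 were called with 500 EMPs (Erg and Sox17) and 4 with 15000 EMPs, and of 8 lymphoid genes 3 (Pax5, Ebf1 and Bcl11b) and 4. The part of cells of other types in the member peaks was not tested.

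**Figure D5:**
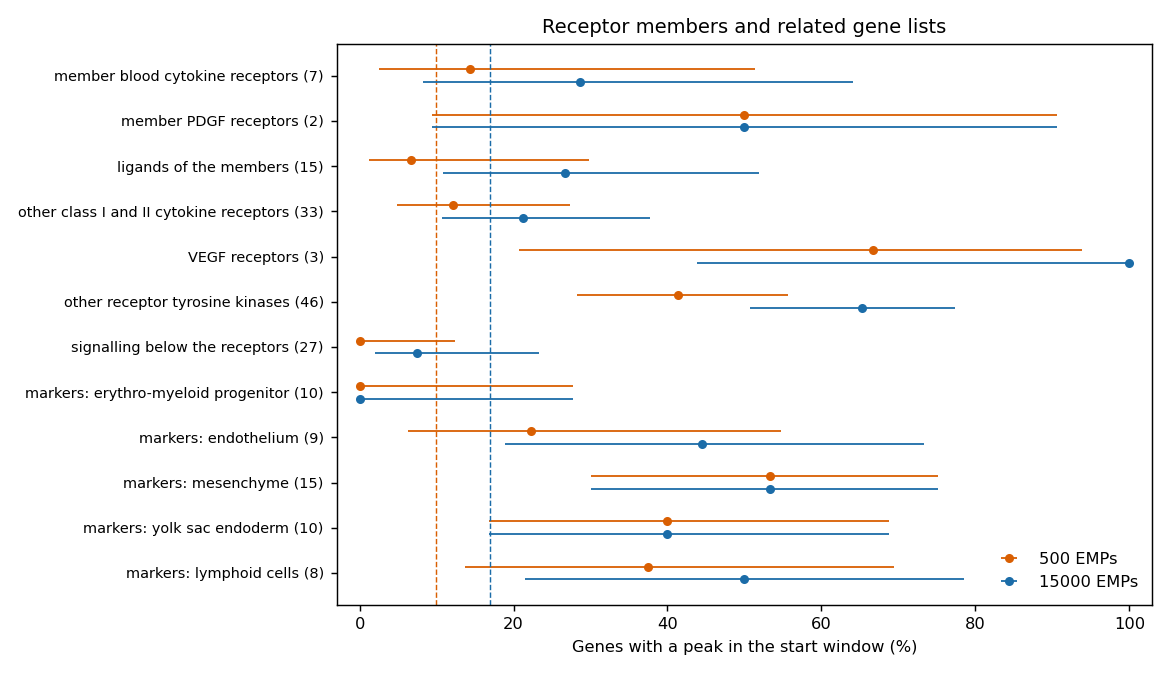
Percentage of genes with a peak in the start window for the receptor genes and 10 related gene lists (number of genes in brackets), with 95% Wilson intervals that cover counting error only and dashed lines at the share of all protein-coding genes, 9.92% and 17%. The other receptor tyrosine kinases stood at 41.3% and 65.2%, and the EMP markers at 0% in both libraries.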

How the data were processed

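H3K27me3 CUT&RUN peak lists were analysed for 2 libraries, 1 from 500 and 1 from 15000 EMPs. The submitters' processing notes name Bowtie2 version 2.2.1, SAMtools version 1.9, MACS2 version 2.1.2 and deepTools version 3.5.1 with build mm10 (GRCm38). Per the study's methods the authors called broad peaks at a p-value of 0.01 (500 EMPs) or 0.05 (15000 EMPs). The commands in its reporting summary set each library against the IgG library of the same cell number. In the study's list of peak-calling commands the file names of the libraries stand under each other's threshold, and the lists were taken as labelled. Labels and methods name different library kits. The deposited lists hold peak positions, and the deposited annotation tables pair peaks with genes, a location and a distance in bp; neither holds a score, a p-value or a read count. IgG peaks were not used.

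Peaks were placed 1-based against GENCODE vM21 genes on chromosomes 1 to 19, X and Y. The start window was 3 kb either side of the gene's 5′ end, and any overlap of 1 bp counted as called. CpG was read from the RefSeq GRCm38.p6 genome, and promoters of 6 of the 9 members were matched by symbol in the RefSeq table. Named genes were the members, their nearest gene on each side, Kdr, and in each of 12 lists up to 4 genes with the greatest cover with 15000 EMPs and those called with 500 EMPs where there were 5 or fewer; genes named beyond this are members of a list or of a drawn locus. Some genes that this rule selects are not reported here. The members and lists were chosen with earlier results of these data known. With 1 library per group there was no test. Python version 3.11.15, pandas version 2.3.3 and numpy version 2.4.6 were used, and the interval code was tested on simulated data.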

Additional observations from a re-analysis of the deposited data

How the results depend on the processing

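Counts and shares of called genes were recomputed with start windows of 1 kb and 5 kb either side, any annotated transcript start, at least 10% of the window covered, the narrowest peaks left out and peaks within 3 kb joined. The covered lengths were recomputed with the last pair alone, the flanks with 3 kb and 50 kb, the members called with the authors' distances, and the pairs with 1 kb and with starts at most 500 kb apart. Of 224 alternative values for 52 results, 213 stayed within 1.5 times the main value (counts, lengths and the share of all genes) or within its 95% Wilson interval (shares of lists and pairs), and 11 moved by these rules. With 500 EMPs and a window of 1 kb either side, 1 member (Pdgfra) was called in place of 2, so 0% of the blood cytokine receptors, beside 7.39% of all genes, and 28.3% of the other receptor tyrosine kinases. With at least 10% of the window covered, again 1 member and 0% of the blood cytokine receptors were called, beside 5.75% of all genes. With 15000 EMPs, 2 members in place of 3 were called under either rule, as Epor was lost, and 0% of the signalling genes with 1 kb. Where at least 50% of a peak had to overlap, 0 members in place of 3 had a 15000 EMP peak shared with 500 EMPs. The share of pairs with an uncalled downstream gene was 79.4% and 70.8% with 1 kb. Joining peaks raised the Pdgfra cover with 500 EMPs from 1532 bp to 4857 bp, as the gaps between its peaks then count. With 1 library per group no replicate could be left out. No paired analysis was possible because each group held 1 library and no result came from a test. The lists give no peak height or read count, and the study states fewer aligned reads for 500 EMPs, so a gene without a peak was not called at that depth and is not shown to lack H3K27me3.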
